A study of Mus musculus with 12 samples.

Results

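The BCL2 family decides whether a cell under stress keeps its mitochondria intact, and it includes survival proteins, pore formers and the BH3-only proteins that set them off. The genes described here are 10 family members chosen by name: the survival genes Bcl2, Bcl2l1 (BCL-XL) and Mcl1, the pore formers Bax and Bak1, and the BH3-only genes Bcl2l11 (BIM), Bad, Bid, Bbc3 (PUMA) and Pmaip1 (NOXA). All 10 were found by Ensembl identifier among the 56748 genes of the count tables, and all 10 passed the low-count filter that left 18438 genes for testing.

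Bulk RNA-seq was obtained from murine CD45.2+ Lin−Sca+Kit+ (LSK) BM cells, a sorted population of stem cells and early progenitors. The cells carried the SCLtTA and BCR-ABL transgenes (DTG), in which TET in the drinking water keeps human BCR::ABL1 silent and the promoter of SCL, a gene of primitive haemopoietic cells, drives the activator. All recipients were irradiated B6.SJL (CD45.1) mice of 8 to 12 weeks that received frozen DTG BM pooled from several donors of both sexes and were kept on TET at first, and the donor cells were sorted by CD45.2. BCR::ABL1− libraries (disease state normal, TET on) came from 6 recipients that stayed on TET, and BCR::ABL1+ libraries (CML, TET off) from 6 recipients without TET for 2 weeks. The control cells therefore carried both transgenes, the transplant, the irradiation and TET, and the donor pool was a shared source. The labels give male for every BCR::ABL1− and female for every BCR::ABL1+ sample, although recipients of both sexes are described for the study, so that a labelled sex and BCR::ABL1 cannot be told apart. The numbers in the names of the deposited tables also run in a separate series for each group, apart from replicate 6 of both groups, whose numbers lie close together.

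Between 22804754 and 41832868 counts fell on genes in BCR::ABL1− libraries and between 16150817 and 25070105 in BCR::ABL1+ libraries. Mitochondrial genes took 0.816% to 1.288% and 2.258% to 2.973% of them. Kit, which defines the gate, was present in every library at 681.0 to 800.0 and 323.1 to 521.7 CPM (TMM-normalised counts per 1000000 counts of a library), and Ly6a (Sca-1) at 27.2 to 38.3 and 31.4 to 74.1 CPM. Markers were called at an edgeR adjusted p under 0.05, at which 30.6% of all tested genes were higher and 29.0% lower. Of 8 LSK markers, 7 were lower in BCR::ABL1+ cells and 0 were higher. The summed level of 7 mast cell and basophil markers ran from 76.4 to 165.7 CPM without BCR::ABL1 and from 389.8 to 2273.4 CPM with it, with 5 of the 7 higher. Of 10 granulocyte markers, 4 were higher and 5 lower, and of 6 monocyte and macrophage markers 2 were higher. Of 7 erythroid markers 6 were lower, of 6 megakaryocyte markers 6 were lower, of 6 B cell markers 2 were lower, and of 7 T and NK cell markers 1 was higher and 2 were lower. The counts of called genes for monocytes and macrophages, B cells, and T and NK cells are not far from the shares of genes at large. The summed level of the monocyte and macrophage markers nevertheless did not overlap between the groups. It ran from 164.4 to 212.3 CPM without BCR::ABL1 and from 326.2 to 676.2 CPM with it. The 2 higher genes were Ccr2 (log2 fold change 1.86) and Ly6c2 (1.35), 0 were lower and 4 were not called. BCR::ABL1+ replicates 2 and 4 stood apart through stromal genes, of which 2 were called higher: their summed level over 6 markers was 692.8 and 271.3 CPM, against 63.5 to 84.5 CPM in the other 4 and 86.4 to 109.1 CPM in BCR::ABL1− libraries. The collagen gene Col3a1 alone was at 275.4 and 78.5 CPM there, against at most 3.89 CPM in any BCR::ABL1− library. No gene of these marker lists was at 0 in all libraries. The part of these cell type signals in the results was not tested, and in bulk RNA fewer cells of a type and less RNA per cell cannot be told apart.

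As background, survival members bind and hold the pore formers BAX and BAK and the BH3-only proteins, and when that restraint fails BAX or BAK open the outer mitochondrial membrane and release cytochrome c. MCL-1 is a short-lived protein on which haemopoietic stem cells depend, and BCL-XL is a known target of STAT5, a factor that BCR::ABL1 activates. BIM and PUMA can be induced by the forkhead factor FOXO3, and much of the control of BAD and BID is on the protein, by phosphorylation or cleavage. RNA levels show none of that protein control.

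To place the members on 1 scale, CPM were divided by the length of their exons in kb. Mcl1 stood highest in both groups, at 79.2 ± 6.18 CPM per kb in BCR::ABL1− and 68.9 ± 4.17 in BCR::ABL1+ libraries (mean ± SD, n = 6 each), with no overlap with the next gene. In BCR::ABL1− cells the level then ran from Bcl2 (24.5 ± 2.59 CPM per kb) and Bak1 (23.8 ± 2.51), whose ranges overlapped, through Bid (13.7 ± 1.29) and Bax (10.7 ± 0.799), whose ranges also overlapped, to Bcl2l1 (6.1 ± 0.613). Bcl2l11 (3.86 ± 0.285 CPM per kb), Bbc3 (3.43 ± 0.524) and Bad (3.34 ± 0.283) came next with overlapping ranges, and Pmaip1 was lowest at 1.42 ± 0.233. In BCR::ABL1+ cells Bcl2 took the fourth place, after Bak1 and Bid, at 15.7 ± 1.26 CPM per kb, and its range overlapped those of its neighbours Bid and Bax. Pmaip1 moved from the last to the sixth place there at 8.33 ± 2.5 CPM per kb, and Bbc3 was last at 1.74 ± 0.601. Every pair of neighbours below Mcl1 overlapped in BCR::ABL1+ cells.

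**Figure D1:**
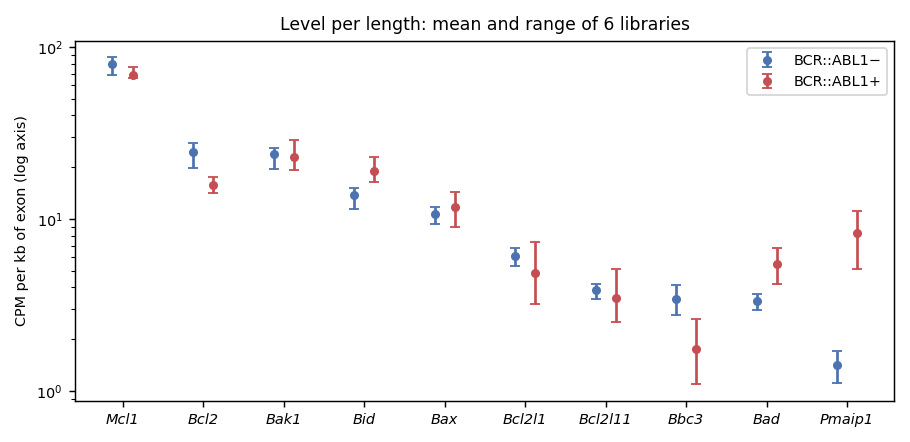
Level of the 10 members per exon length (CPM per kb, log axis), as the mean (point) and the lowest and highest of 6 libraries (bar) in BCR::ABL1− (blue) and BCR::ABL1+ (red) cells. Mcl1 is highest in both groups, and Pmaip1 goes from 1.42 to 8.33 CPM per kb.

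The question put to the members was which of them differed in level between LSK cells with and without BCR::ABL1. Of the 10, 3 rose (Pmaip1, Bad and Bid), 3 fell (Bbc3, Bcl2 and Mcl1) and 4 did not pass the test (Bcl2l1, Bax, Bak1 and Bcl2l11) at an edgeR adjusted p under 0.05. That is 60.0% of the members, near the 59.5% of all tested genes that passed (30.6% higher and 29.0% lower), so the share called is near that of genes at large. Without BCR::ABL1+ replicates 2 and 4, which stood apart above, 3 members rose and 5 fell, and the share of all genes called was also higher, at 64.0% (32.0% higher and 32.0% lower). Under upper-quartile scaling 3 rose and 2 fell, with 60.2% of all genes called. The groups did not overlap for 5 members, against 37.6% of all genes (17.0% above and 20.6% below). The median log2 fold change of the members was −0.11, against 0.067 over all genes, and the median size of the change was 0.40 against 0.49 on the log2 scale. By role, of the 3 survival genes 0 rose and 2 fell, of the 2 pore formers 0 passed, and of the 5 BH3-only genes 3 rose and 1 fell.

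**Figure D2:**
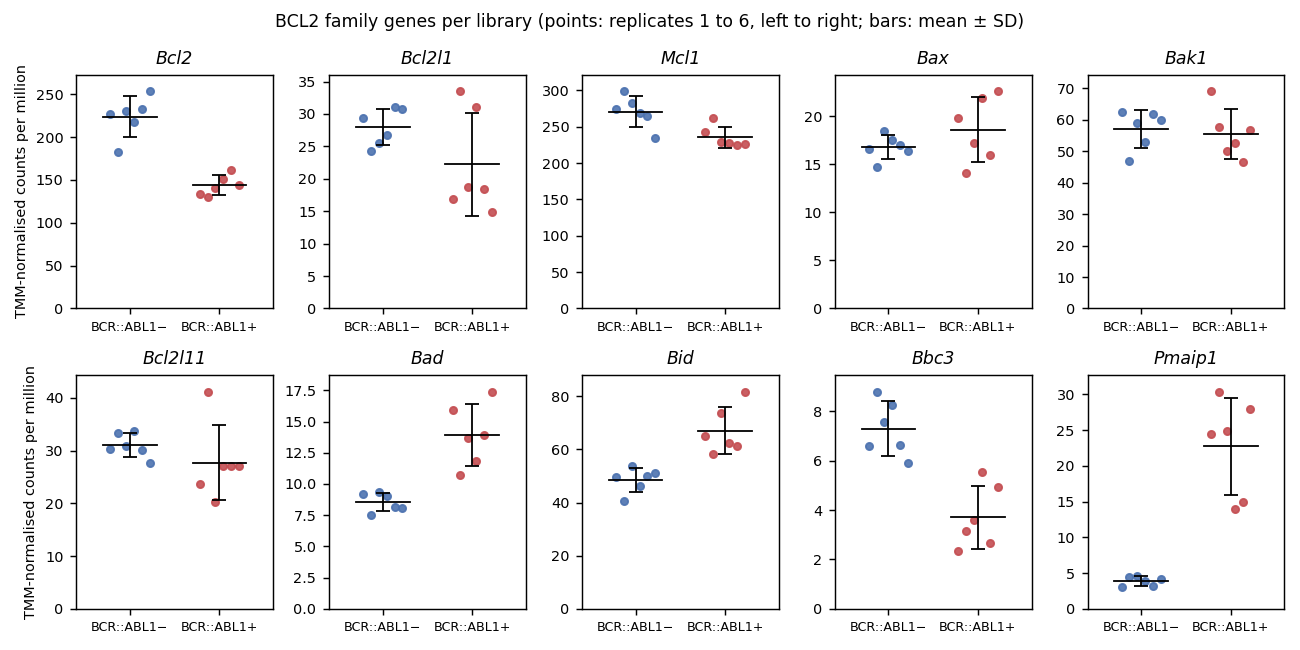
CPM of each member in every library (points, replicates 1 to 6 from left to right), with the mean and SD (bars), in BCR::ABL1− (blue) and BCR::ABL1+ (red) cells. The groups do not overlap for Bcl2, Bad, Bid, Bbc3 and Pmaip1, and BCR::ABL1+ replicates 2 and 4 lie above the other 4 BCR::ABL1+ libraries for Bcl2l1.

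Bcl2, the founding survival gene of the family, fell. Its level was 182.2, 228.8 and 253.5 CPM (lowest, median and highest) in BCR::ABL1− libraries and 129.8, 142.7 and 161.3 CPM in BCR::ABL1+ libraries. All 6 BCR::ABL1+ libraries lay below all BCR::ABL1− libraries. Bcl2 changed by −0.64 on the log2 scale (SE 0.0788, 95% interval −0.81 to −0.47), or 1.56-fold lower, with an edgeR adjusted p of 7.38e-06, and among all genes tested this fall ranked 2828. An antisense transcript overlaps 6.1% of the exon length of Bcl2 in the annotation, and without a known strand setting its reads cannot be told apart from those of Bcl2. The counts given to that transcript were 1133 over all libraries, against 2297 to 9260 for Bcl2 in a single library.

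Mcl1, the most abundant member per length, fell by a small amount. Its lowest, median and highest levels were 235.2, 271.6 and 298.9 CPM without BCR::ABL1 and 225.2, 228.6 and 261.5 CPM with it. In BCR::ABL1+ cells 4 of 6 libraries were below all BCR::ABL1− libraries, and replicates 1 and 2 were within their range. The log2 fold change was −0.20 (SE 0.0649, 95% interval −0.34 to −0.06), or 1.15-fold lower, with an edgeR adjusted p of 0.0157, and under upper-quartile scaling it was −0.13 and no longer passed (edgeR adjusted p 0.102).

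Bcl2l1, which encodes BCL-XL, did not pass the test over all libraries, and its BCR::ABL1+ libraries lay at separate levels. BCR::ABL1− libraries held 24.3, 28.1 and 31.0 CPM (lowest, median and highest). In BCR::ABL1+ cells replicates 1, 3, 5 and 6 were at 16.9, 18.7, 18.4 and 14.8 CPM, below all BCR::ABL1− libraries, while replicates 2 and 4 were at 33.5 and 31.0 CPM. These 2 are the libraries with the stromal signal given above, and they also had the highest mast cell and basophil sums (2273.4 and 957.6 CPM). Those sums ran from 389.8 to 834.2 CPM in replicates 1, 3, 5 and 6, so replicate 4 was not far above them. Replicate 2 also had the highest megakaryocyte sum of the BCR::ABL1+ libraries (259.4 CPM, against 96.0 to 144.4 CPM in the rest). Replicate 4 had the highest erythroid sum of the group (41.3 CPM, against 16.9 to 30.9 CPM in the rest). The SD was 7.95 CPM among BCR::ABL1+ and 2.81 CPM among BCR::ABL1− libraries. Over all 12 libraries the log2 fold change was −0.33 (SE 0.183, 95% interval −0.72 to 0.06, edgeR adjusted p 0.132). It was −0.50 without replicate 2 (edgeR adjusted p 0.0101), −0.45 without replicate 4 (edgeR adjusted p 0.0423) and −0.71 without both (edgeR adjusted p 1.76e-05), a choice made after the values were seen. The part of the stromal, mast cell, megakaryocyte or erythroid signal in this result was not tested.

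The pore formers showed no change that passed the test. Bax was at 14.7, 16.8 and 18.5 CPM (lowest, median and highest) in BCR::ABL1− and 14.1, 18.5 and 22.6 CPM in BCR::ABL1+ libraries, with 3 BCR::ABL1+ libraries above and 1 below all BCR::ABL1− libraries. Its log2 fold change was 0.15 (SE 0.116, 95% interval −0.10 to 0.39, edgeR adjusted p 0.285). Bak1 was at 47.0, 59.4 and 62.5 CPM and at 46.5, 54.7 and 69.1 CPM, with ranges that overlapped almost fully. Its log2 fold change was −0.05 (SE 0.096, 95% interval −0.25 to 0.16, edgeR adjusted p 0.703) and had the opposite sign, 0.03, under upper-quartile scaling. The intervals leave room for a change of Bax of up to 0.39 and of Bak1 of down to −0.25 on the log2 scale. Exons of Ggnbp1 overlap 18.2% of the exon length of Bak1 on the opposite strand, and those of another entry of that name overlap 7.4%. These entries had 1147 and 42 counts over all libraries. Exons of Gm45808, with 9 counts over all libraries, overlap 12.2% of the exon length of Bax on the same strand.

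Among the BH3-only genes, Pmaip1 rose more than any other member. It encodes NOXA, which binds MCL-1 above all. The level was 3.04, 4.01 and 4.64 CPM (lowest, median and highest) in BCR::ABL1− libraries and 13.9, 24.7 and 30.4 CPM in BCR::ABL1+ libraries. All 6 BCR::ABL1+ libraries lay above all BCR::ABL1− libraries. The log2 fold change was 2.55 (SE 0.203, 95% interval 2.11 to 2.98), or 5.85-fold, with an edgeR adjusted p of 1.55e-07, and the rise ranked 139 among all genes tested. Within the BCR::ABL1+ group, replicates 4 and 5 (13.9 and 14.9 CPM) lay below the other 4 (24.4 to 30.4 CPM).

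Bad and Bid rose by less. Bad, whose product BAD is held inactive by phosphorylation under growth factor signals, was at 7.53, 8.60 and 9.35 CPM in BCR::ABL1− and 10.7, 13.8 and 17.4 CPM in BCR::ABL1+ libraries, without overlap. The log2 fold change of Bad was 0.70 (SE 0.124, 95% interval 0.43 to 0.97), or 1.62-fold, with an edgeR adjusted p of 0.000218. Bid, which links death receptors to mitochondria when caspase-8 cleaves its product, was at 40.6, 49.9 and 53.6 CPM and at 58.4, 63.7 and 81.8 CPM, again without overlap. For Bid the log2 fold change was 0.47 (SE 0.0894, 95% interval 0.27 to 0.66), or 1.38-fold, with an edgeR adjusted p of 0.000414. Both genes share exon sequence with a neighbour on the opposite strand, Bad with Gpr137 over 20.5% of its exon length and Bid with Bcl2l13 over 17.7%. The log2 fold change of Bcl2l13 itself was −0.19. The part of the neighbours in these values was not tested.

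Bbc3 fell and was the member with the largest decrease. It encodes PUMA, which can bind every survival member. The level was 5.89, 7.10 and 8.80 CPM (lowest, median and highest) without BCR::ABL1 and 2.32, 3.39 and 5.53 CPM with it, so that all BCR::ABL1+ libraries were lower but replicate 4 (5.53 CPM) came close to BCR::ABL1− replicate 6 (5.89 CPM). The change was −0.98 on the log2 scale (SE 0.209, 95% interval −1.43 to −0.53), or 1.97-fold lower, with an edgeR adjusted p of 0.00101, and the fall ranked 1227 among all genes tested. The counts behind the lowest library were few, at 41 reads.

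Bcl2l11, which encodes BIM, did not pass the test. BCR::ABL1− libraries held 27.6, 30.5 and 33.8 CPM, and BCR::ABL1+ libraries 20.3, 27.1 and 41.2 CPM (lowest, median and highest). In BCR::ABL1+ cells 5 of 6 libraries were below all BCR::ABL1− libraries, and replicate 2 alone was above them all at 41.2 CPM. The log2 fold change was −0.16 (SE 0.133, 95% interval −0.44 to 0.13, edgeR adjusted p 0.321) with all libraries, −0.32 without BCR::ABL1+ replicate 2 (edgeR adjusted p 0.00672) and −0.35 without replicates 2 and 4 (edgeR adjusted p 0.00604). The gene passed only where replicate 2 was left out, among the alternatives tried.

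The promoters of Bcl2l11 and Bbc3 are shown because both genes are known FOXO3 targets and because, of 15 RefSeq promoters that matched 9 of the 10 members, only these 2 held the forkhead motif GTAAACA on either strand. The promoters searched ran from 250 bases before to 50 bases after the start, and 3.65% of all 32851 mouse promoters of that length held the motif. Below are the 250 bases before each start, from RefSeq on GRCm38.p6, 5′ to 3′ on the strand of the gene (the plus strand for both), Bcl2l11 at chr2:128125788-128126037 and Bbc3 at chr7:16310011-16310260. The capitals mark the motif, which begins 227 bases before the start of Bcl2l11 and, as its reverse complement TGTTTAC, 167 bases before that of Bbc3.
Bcl2l11: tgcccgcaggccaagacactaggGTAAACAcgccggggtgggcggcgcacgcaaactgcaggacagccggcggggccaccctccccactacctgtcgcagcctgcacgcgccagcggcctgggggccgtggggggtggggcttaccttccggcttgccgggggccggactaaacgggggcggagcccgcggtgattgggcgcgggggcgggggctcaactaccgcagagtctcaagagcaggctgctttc
Bbc3: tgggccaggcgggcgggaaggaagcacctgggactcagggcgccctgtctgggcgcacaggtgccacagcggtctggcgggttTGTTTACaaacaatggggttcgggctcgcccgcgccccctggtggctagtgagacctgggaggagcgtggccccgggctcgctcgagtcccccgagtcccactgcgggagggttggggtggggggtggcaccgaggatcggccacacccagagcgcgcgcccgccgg
The STAT-type motif TTCNNNGAA was in 0 of the 15 member promoters and in 8.30% of all promoters, which says only that these letters are not in these windows. A match is a stretch of letters and not a measured binding site. Foxo3 itself fell from 338.6 ± 9.25 to 137.0 ± 18.4 CPM (mean ± SD, n = 6 each), a log2 fold change of −1.31 (SE 0.0801) with an edgeR adjusted p of 2.43e-08.

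**Figure D3:**
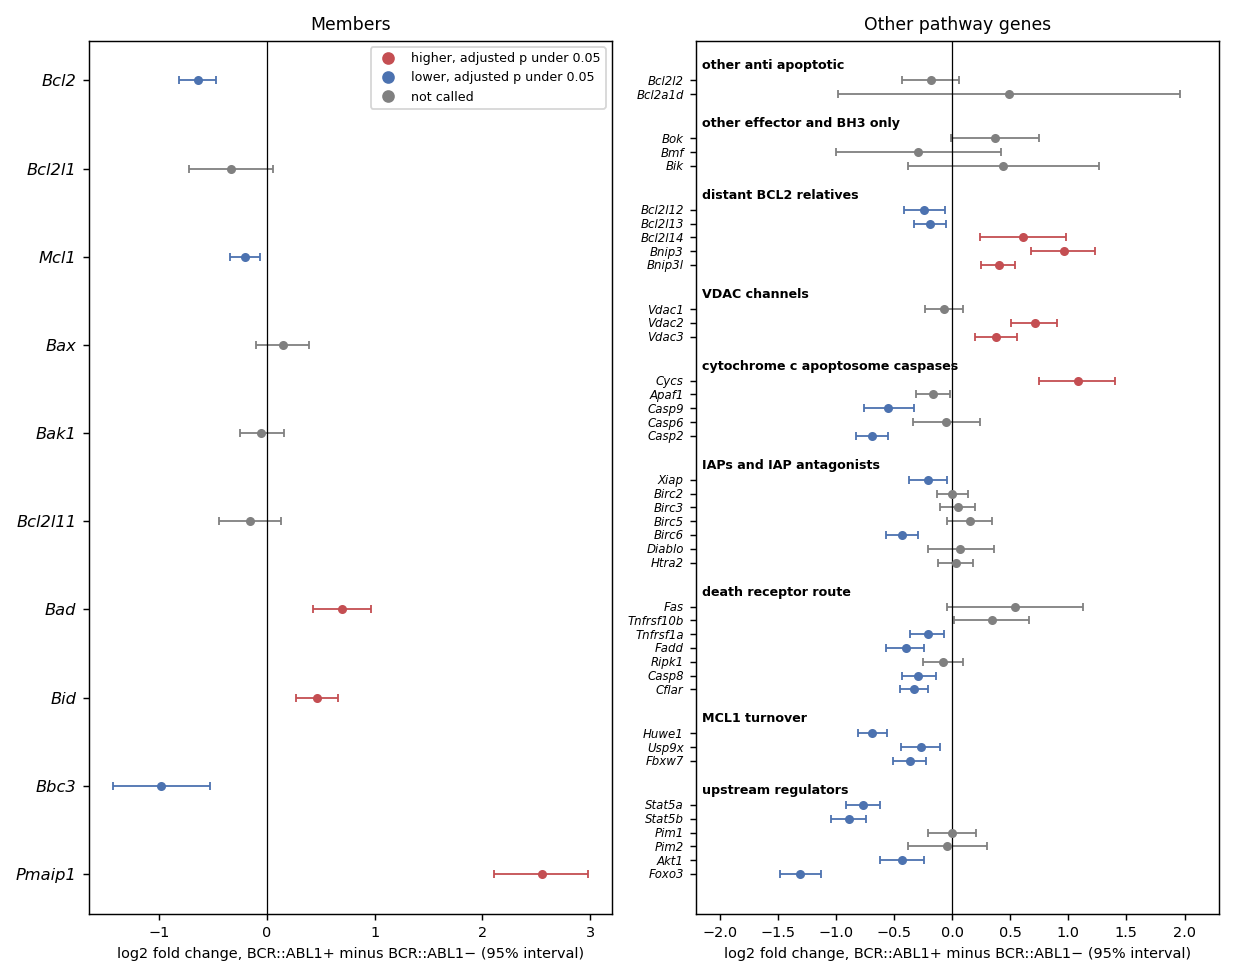
Log2 fold change of the 10 members (left) and of other tested genes by list (right), BCR::ABL1+ minus BCR::ABL1−, with 95% intervals, where red is higher, blue lower and grey not called. Pmaip1 at 2.55 is the largest member change, and Foxo3 at −1.31 is the lowest gene of the right panel.

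Ratios of members within a library do not depend on how libraries are scaled, and 6 were compared with a two-sided exact permutation test of the group labels (smallest possible p 0.00216, adjusted over the 6). Bax to Bcl2 rose: the log2 ratio of counts averaged −3.73 ± 0.127 without BCR::ABL1 and −2.96 ± 0.266 with it (mean ± SD, n = 6 each), with no overlap, a difference of 0.77 (exact permutation p = 0.00216, adjusted 0.013). The same difference was 0.78 without BCR::ABL1+ replicates 2 and 4 (adjusted exact permutation p = 0.0571) and 0.80 between medians (adjusted exact permutation p = 0.0779). Without these 2 replicates the groups still did not overlap, and the unadjusted p was the smallest that the remaining splits allow. The adjusted p of 0.0571 there therefore says nothing about stability. Mcl1 to Bcl2 went from 0.28 ± 0.264 to 0.72 ± 0.192 (difference 0.44, exact permutation p = 0.0108, adjusted 0.0325), so that Bcl2 lost more than Mcl1. Leaving out any of 10 libraries in turn brought the adjusted exact permutation p of that ratio to between 0.0519 and 0.0649, above the threshold. Bcl2l11 to Bcl2 differed by 0.45 (exact permutation p = 0.026, adjusted 0.0519) and did not pass. Bcl2l1 to Mcl1 (−0.20, adjusted 0.37 by exact permutation), Bcl2l1 to Bcl2 (0.24, adjusted 0.37) and Bax to Bak1 (0.18, adjusted 0.279) did not pass either, with SDs in BCR::ABL1+ libraries of 0.45, 0.523 and 0.291 on the log2 scale.

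**Figure D4:**
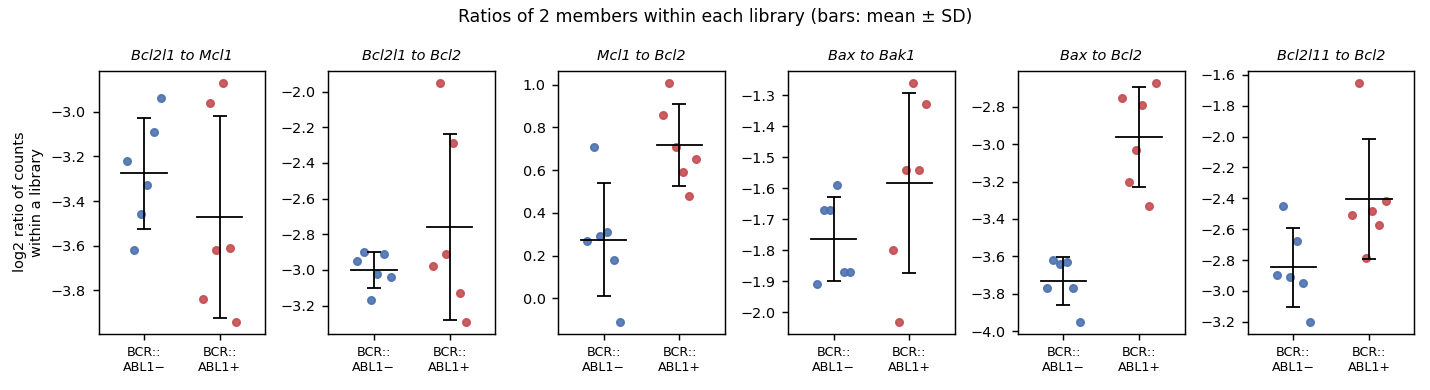
Log2 ratio of the counts of 2 members within each library (points) with the mean and SD (bars) in BCR::ABL1− (blue) and BCR::ABL1+ (red) cells, each panel on its own axis. The groups are apart for Bax to Bcl2 (−3.73 against −2.96 on average), while for Bcl2l1 to Bcl2 replicates 2 and 4 stand above the other BCR::ABL1+ libraries.

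The coefficient of variation was higher among BCR::ABL1+ than among BCR::ABL1− libraries for 8 of the 10 members, and for 91.1% of all tested genes, so the members did not stand out in this. Bcl2 (8.06% against 10.6%) and Mcl1 (6.04% against 7.81%) were the exceptions. Relative to the BCR::ABL1− mean on the log2 scale, Pmaip1 was between 1.83 (replicate 4) and 2.96 (replicate 2) higher in each BCR::ABL1+ library, and Bbc3 between −1.60 (replicate 1) and −0.38 (replicate 4). Replicate 2 combined the highest Bcl2l1 (0.27), Bcl2l11 (0.41) and Pmaip1 (2.96) with the lowest Bcl2 (−0.78), Bax (−0.25), Bad (0.33) and Bid (0.27) of its group. Replicate 6 had the highest Bax (0.43), Bad (1.02) and Bid (0.76) and the lowest Bcl2l1 (−0.91).

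**Figure D5:**
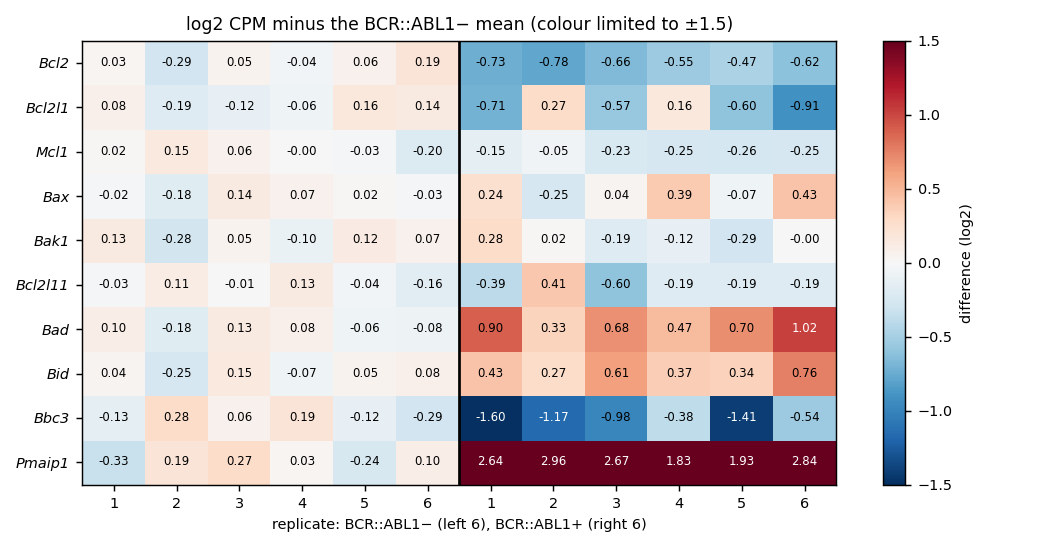
Log2 CPM of each member in every library minus the mean of the 6 BCR::ABL1− libraries, with the value printed in each cell (red above, blue below, colour limited to ±1.5). Pmaip1 is above in all 6 BCR::ABL1+ columns, while of these columns Bcl2l1 is above in replicates 2 and 4 only.

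Replicate 6 of the groups is the only pair with neighbouring table numbers. Between these 2 libraries Bcl2 differed by −0.81, Bad by 1.10, Bid by 0.68, Bbc3 by −0.25 and Pmaip1 by 2.76 on the log2 scale. These were in the direction of the whole comparison, with no replicate check. Mcl1, the remaining called member, differed by only −0.05, against −0.20 over all libraries. Without replicate 6 of both groups, the log2 fold changes were −0.60 for Bcl2, −0.22 for Mcl1, 0.62 for Bad, 0.42 for Bid, −1.13 for Bbc3 and 2.51 for Pmaip1. The 6 calls held there.

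Pmaip1 and Bbc3, the members with the largest rise and fall, were compared with 10159 other genes over the 12 libraries after each group's mean was subtracted, as a description with no test. The genes nearest to Pmaip1 were Tmem160 (Pearson r 0.911, Spearman rho 0.867), Nrg2 (r 0.896, rho 0.846) and Hnrnpll (r 0.874, rho 0.853). The genes nearest to Bbc3 were Tkfc (r 0.888, rho 0.832), Dalrd3 (r 0.874, rho 0.839) and Malat1 (r 0.843, rho 0.783), a nuclear long non-coding RNA. For Nrg2, Hnrnpll and Tkfc the likeness came mostly from the BCR::ABL1+ libraries, with r of 0.976, 0.959 and 0.96 there against 0.459, 0.417 and 0.484 in BCR::ABL1− libraries. All points share the libraries and their depth, and the largest r of so many genes is high by selection.

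Of 49 other listed genes, 44 could be tested, and 6 rose and 19 fell. The 34 tested BCL2 relatives and genes of the mitochondrial and death receptor routes held 6 that rose (17.6%, against 30.6% of all genes) and 11 that fell (32.4%, against 29.0%). Under upper-quartile scaling 10 of the 34 rose (29.4%, against 34.5% of all genes) and 6 fell (17.6%, against 25.8%), so the split of their directions depends on the scaling. Of the 10 upstream regulators and genes of MCL-1 turnover, 8 fell (80.0%) and 0 rose under both scalings. The counts by list that follow are small and are to be read against the same shares of all genes. Among the remaining survival relatives, 0 of 2 tested passed: Bcl2l2 (BCL-W) was at 22.4 ± 1.06 and 19.7 ± 3.81 CPM, and Bcl2a1d at 0.622 ± 0.213 and 0.871 ± 1.15 CPM (mean ± SD, n = 6 each). Bcl2a1a and Bcl2a1b, near-identical copies of Bcl2a1d between which reads may be split, failed the filter, as did Bcl2l10 (at most 2 counts in any library) and Bcl2l15. Of the other pore-forming and BH3-only genes Bok, Bmf and Bik did not pass, and Hrk had 0 counts in all 12 libraries, where a count of 0 allows up to 3.

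Distant relatives of the family and the VDAC channels of mitochondria held all but 1 of the rises. Bnip3, which acts in mitophagy, went from 10.7 ± 0.579 to 20.9 ± 4.58 CPM (mean ± SD, n = 6 each), a log2 fold change of 0.96 with an edgeR adjusted p of 1.71e-05. Its relative Bnip3l rose by 0.40 (edgeR adjusted p 0.000174) and Bcl2l14 by 0.61 (edgeR adjusted p 0.00709), whereas Bcl2l12 and Bcl2l13 fell. Vdac2, the outer membrane channel that holds BAK, rose from 181.8 ± 12.3 to 296.3 ± 45.5 CPM (log2 fold change 0.71, edgeR adjusted p 1.29e-05), Vdac3 rose by 0.38 (edgeR adjusted p 0.00115), and Vdac1 did not pass (−0.07). In all, 3 of 5 tested relatives and 2 of 3 channels rose, against 30.6% of all genes.

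Of 7 genes for cytochrome c, the apoptosome and caspases, 1 rose and 3 fell, where 30.6% of all genes rose and 29.0% fell. Cycs, which encodes the cytochrome c that leaves the mitochondria, went from 43.6 ± 3.96 to 92.0 ± 26.0 CPM (log2 fold change 1.08, edgeR adjusted p 3.08e-05), and its value is uncertain because the gene has processed copies. Casp2 fell from 212.7 ± 10.5 to 131.8 ± 12.3 CPM (log2 fold change −0.69, edgeR adjusted p 7.72e-07), and Casp9, the initiator caspase of the apoptosome, by 0.55 on the log2 scale (edgeR adjusted p 0.000279). Casp6 (−0.05) and the apoptosome scaffold Apaf1 (−0.16, edgeR adjusted p 0.0512) did not pass. Of 7 caspase inhibitors of the IAP group and their antagonists 2 fell, Birc6 (log2 fold change −0.43, edgeR adjusted p 6.12e-05) and Xiap (−0.21, edgeR adjusted p 0.03), and 5 did not pass.

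Of 7 death receptor genes 4 fell and 0 rose, where 29.0% of all genes fell and 30.6% rose. The split of directions in the routes depends on the scaling, as given above. The 4 were Cflar, an inhibitor of caspase-8 (log2 fold change −0.33, edgeR adjusted p 0.00013), Fadd, the adaptor (−0.40, edgeR adjusted p 0.000445), Casp8 (−0.29, edgeR adjusted p 0.00197) and Tnfrsf1a. All 3 genes for the turnover of MCL-1 protein fell. They were the ubiquitin ligase Huwe1 (977.3 ± 53.1 to 606.6 ± 29.9 CPM, log2 fold change −0.69, edgeR adjusted p 2.96e-07), the ligase subunit Fbxw7 (−0.36, edgeR adjusted p 0.000376) and the deubiquitinase Usp9x (−0.27, edgeR adjusted p 0.0105), which act on MCL-1 in opposite directions. Huwe1 and Usp9x, like Xiap above and Pim2 below, lie on the X chromosome, and the labelled sex differs between the groups. The sorted CD45.2 cells, however, came from the pool of donors of both sexes. The part of sex in these values was not tested. Of 7 upstream regulators 5 fell, against 29.0% of all genes. Among them were Foxo3 as given above, Stat5b (224.2 ± 9.29 to 120.8 ± 13.2 CPM, log2 fold change −0.89, edgeR adjusted p 1.63e-07) and Stat5a (−0.77, edgeR adjusted p 3.88e-07). The kinase genes Pim1 and Pim2, targets of STAT5, did not pass (0.00 and −0.04).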

How the data were processed

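RNA-seq of 12 libraries was analysed. The deposited values are unnormalised read counts on Ensembl genes, made by the authors. The submitters' processing notes name FastQC 0.11.9, fastp 0.23.2, STAR 2.7.10a, featureCounts 2.0.1, DESeq2 1.36.0 and mm39 (GRCm39), whereas the paper's methods for bulk RNA-seq name Trim Galore!, HISAT2, featureCounts and a human genome, so which aligner made these counts is uncertain. The annotation, strand setting and treatment of multimapping reads are not given in the sources used here. Reads shared with antisense or overlapping genes or with near-identical copies therefore cannot be assigned with certainty. Symbols were matched by identifier (52073 of 56748), exon lengths and overlaps came from GENCODE on GRCm38, which differs from the build in the notes, and no gene coordinates are given except those of RefSeq promoters on their own build. The other 4675 identifiers had no symbol, and no 2 libraries agreed within sampling noise (lowest chi-square per degree of freedom 4.072).

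Groups and replicate numbers came from the sample titles. The members and gene lists were chosen with earlier results of these data known. All 18438 genes that passed filterByExpr were fitted in R 4.3.3 with the quasi-likelihood test of edgeR 4.0.16, using TMM factors and no covariate, with Benjamini-Hochberg adjustment over all of them and a threshold of 0.05. CPM are TMM-normalised. A log2 CPM used for the likeness of genes had a prior count of 2 and a minimum mean of 3. Ratios used counts plus 0.5. Counting limits (a floor of 3 counts) cover counting error only, since reads without molecular identifiers are not independent molecules. Replicates are recipients of a shared donor pool, so p-values measure the spread between recipients and not between donors. Named were all members, in each list up to 3 called genes with the lowest adjusted p, leaving out genes not reported here, the untested genes, and the 3 genes most like the largest rise and fall. Other list genes are named only to complete a count, and 3 listed genes are not reported here by name. Alternatives were RLE and upper-quartile scaling, no filter, DESeq2 1.42.0, the replicate block, a pseudocount of 2, medians, and leaving out libraries. Leaving out BCR::ABL1+ replicates 2 and 4 together was added after seeing the data. On simulated data with 200 changed genes, the edgeR step called 154 of them and 6 of 18238 unchanged genes. The simulated rises and falls were balanced and far fewer than the 59.5% of genes called in the data. The simulation therefore says nothing about calls that depend on the scaling. The same-numbered samples of the groups did not deviate together (correlations −0.125 to 0.068), so the numbers were not treated as pairs. Tables, tests and plots used Python 3.11.15, pandas 2.3.3, numpy 2.4.6, scipy 1.17.1 and matplotlib 3.10.9.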

Additional observations from a re-analysis of the deposited data

Results flagged for a closer look

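In 32 sets of 6 libraries, the highest or lowest library was compared with the spread of the others, and 2 stood apart by Dixon's criterion at the 95% level, where chance gives 1.6. Bcl2l11 in BCR::ABL1+ replicate 2 was at 41.2 CPM, against at most 27.1 CPM in the other BCR::ABL1+ libraries. The log2 ratio of Bcl2l11 to Bcl2 in the same library was −1.65, against at most −2.42 in the other 5. Both rest on the same Bcl2l11 count of a library that also had the highest stromal and mast cell marker sums, whose part was not tested.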

How the results depend on the processing

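No member called over all libraries changed direction under any alternative, and the count of higher members was 3 throughout. The count of lower members was 3 to 5 when each library was left out in turn, reaching 5 without BCR::ABL1+ replicate 2, and it was also 5 without replicates 2 and 4, where Bcl2l1 and Bcl2l11 were called, and 2 under upper-quartile scaling, where Mcl1 was not. Of the other genes, 6 to 8 were higher and 18 to 20 lower with each library left out, and 10 were higher and 14 lower under upper-quartile scaling, which shifted the median log2 fold change of all genes from 0.067 to 0.14 (DESeq2 0.127). For the ratios (exact permutation tests), Bax to Bcl2 was 0.78 (adjusted p 0.0571) without replicates 2 and 4 and 0.80 (adjusted p 0.0779) with medians. Leaving out replicates 2 and 4 leaves fewer splits, and the unadjusted p of Bax to Bcl2 was the smallest that these allow. Mcl1 to Bcl2 was 0.40 (adjusted p 0.0762) without replicates 2 and 4 and 0.40 (adjusted p 0.13) with medians. It was 0.37 (adjusted p 0.0952) without replicate 6 of both groups, and 0.36 to 0.53 with each library left out. Bcl2l11 to Bcl2 was 0.45 (adjusted p 0.0433) with a pseudocount of 2 and 0.30 to 0.52 with each library left out (adjusted p 0.0173 without BCR::ABL1− replicate 2 and 0.0346 without BCR::ABL1+ replicate 3). Apart from that limit on Bax to Bcl2, the cause of these changes was not tested. With the replicate block, which the data did not support as pairing, 3 members were higher and 3 lower, 6 and 18 other genes were higher and lower, 9975 in place of 10976 genes were called, and an exact sign-flip test over the pairs gave 0.77 for Bax to Bcl2 and 0.44 for Mcl1 to Bcl2 (adjusted p 0.0625 for both). The unadjusted p was the smallest that 6 pairs allow, so these tests say nothing about stability. Hrk (0 counts) and Bcl2l10 (at most 2 counts in any library) are limited by depth. Bbc3 also had few reads, 41 to 342 in a library, and was called lower under every alternative.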
